A study of Mus musculus with 6 samples.

Results

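Hemidesmosomes are the junctions by which basal epithelial cells hold on to the basement membrane. The integrin α6β4 and the transmembrane collagen XVII span the cell membrane, the plakins plectin and dystonin tie them to keratin filaments inside the cell, and the tetraspanin CD151 associates with laminin-binding integrins. Outside the cell their main ligand is laminin-332, a trimer whose chains include α3 and β3, and in the mammary gland the basal myoepithelial cells rest on it. The 9 genes described here are Itgb4, Itga6, Itga3, Cd151, Col17a1, Dst, Plec, Lama3 and Lamb3, out of 23460 genes or unnamed transcripts tested. They were proposed for their shared role, but were chosen by an earlier reading of the same diet comparison, so the diet values of these genes are given as a description and no test is read for them. A probe belonged to a gene where the RefSeq accession in the array's annotation did, which gave 12 probes for the 9 genes.

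RNA came from the mammary glands of 6 female mice without Trp53, with 1 single-colour (Cy3) Agilent array per mouse. The 3 mice of the HFD group were given a high-fat diet and the 3 of the CD group a control diet, from 3 weeks of age for 5 weeks, and all were 8 weeks old at collection. Both groups carried the Trp-53 knockout, so no array shows these genes in a gland with Trp53. The labels name the tissue as mammary glands and also describe mammary epithelial cells.

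A level below is the log2 processed signal minus the 75th percentile of its array, a difference is HFD minus CD on that scale, and n = 3 mice per diet throughout. Levels of different member probes are not set against each other. Marker levels are given beside the detection limit and are summed, so the brightest probes weigh most in a sum. The 75th percentile of signal lay between 1326 and 1973 intensity units, and 27249 to 29462 of 39429 probes were well above background on each array. The only named Trp53 probe was well above background on 6 of 6 arrays, with levels of -0.77, -0.43 and -0.97 on HFD and -0.55, -1.07 and -0.73 on CD. Whether it lies in the deleted stretch is not given, so it checks no label. Along the leading axis of a principal component analysis, with 46.7% of the variance, HFD replicates 1 and 2 scored -56.0 and -50.1 and CD replicates 2 and 3 scored 48.8 and 49.4. HFD replicate 3 and CD replicate 1 scored 7.35 and 0.58 and stood between them, so the difference of each gene without either of these arrays is given below. The arrays came from 3 slides. HFD replicate 1 was alone on its slide, CD replicates 2 and 3 shared another, and only the slide with HFD replicates 2 and 3 and CD replicate 1 held both diets.

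The labelled tissue was checked against marker lists. Levels of the luminal keratin Krt18 were 7.35 to 8.45 and those of the basal keratin Krt5 4.60 to 6.16. Of the adipocyte markers, Adipoq, which encodes the hormone adiponectin, had levels of -7.33 to -5.74, and the lipid droplet gene Plin1 had levels of -6.41 to -5.86. Fabp4, which endothelium also expresses, had levels of 0.39 to 2.55. The lowest level of any probe well above background was between -7.87 and -6.83 per array, so Adipoq and Plin1 lay close to the detection limit. Pparg, with levels of -2.58 to -0.76, and Cfd, with -5.60 to -3.025, lay further above that limit. Levels were -6.43 to -4.33 for Retn, -5.16 to -4.67 for Lipe, -6.17 to -5.39 for Lep and -6.51 to -5.98 for Cidec. Of the keratinocyte markers, Krt1, Dsg1a, Flg2 and Calml3 did not pass the filter on dim probes.

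All 12 member probes were well above background on 6 of 6 arrays and none was saturated. All 9 genes passed the filter, which kept probes well above background on at least 3 arrays. Promoter sequence, 250 bases before to 50 after a gene start, was matched for 5 of the 9 genes, Itga3, Lamb3, Col17a1, Dst and Cd151, in 9 windows of the RefSeq annotation of GRCm38.p6. Both strands were searched for the AP-1 motif (TGANTCA), the TEAD motif (CATTCC), the MYC E-box (CACGTG) and a p53-family half-site, which is 1 of the pair of decamers that make up a full p53-family site, because these factors are known regulators of basal epithelial genes or bear on the study's title and genotype. Each window with a match held 1 match, so no matches overlapped. The AP-1 motif was in 1 of 9 windows, an Itga3 window, against 7.81% of 32851 windows of all genes. The TEAD motif was in 1 of 9, a Lamb3 window, against 14.7%. The MYC E-box was in 0 of 9, against 7.15%, and the p53-family half-site in 2 of 9, from Col17a1 and Cd151, against 8.36%.

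Of the windows with a match, 3 are shown in the direction of transcription, with the matched motif in capitals. The window of Col17a1, the gene with the largest diet difference among the 9, covers chr19:47691993-47692292 on the minus strand, and its p53-family half-site begins at position 15 from the gene start. The Cd151 window, chr7:141467112-141467411 on the plus strand, has such a half-site from position -50, in a gene with almost no diet difference on its first probe. The Lamb3 window, chr1:193301993-193302292 on the plus strand, has the TEAD motif from position -167 and belongs to a laminin chain. A match describes letters in these windows and is not evidence of a bound factor.
Col17a1: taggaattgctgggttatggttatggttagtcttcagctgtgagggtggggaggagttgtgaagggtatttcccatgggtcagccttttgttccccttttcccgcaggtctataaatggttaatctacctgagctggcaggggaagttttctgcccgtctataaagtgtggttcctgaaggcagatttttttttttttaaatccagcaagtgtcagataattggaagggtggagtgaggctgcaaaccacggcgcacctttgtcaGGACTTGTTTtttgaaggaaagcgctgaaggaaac
Cd151: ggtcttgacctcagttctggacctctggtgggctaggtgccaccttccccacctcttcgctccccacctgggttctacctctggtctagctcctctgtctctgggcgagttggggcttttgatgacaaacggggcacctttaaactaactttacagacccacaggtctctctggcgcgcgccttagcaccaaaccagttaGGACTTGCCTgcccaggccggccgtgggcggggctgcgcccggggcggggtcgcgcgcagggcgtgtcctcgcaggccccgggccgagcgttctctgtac
Lamb3: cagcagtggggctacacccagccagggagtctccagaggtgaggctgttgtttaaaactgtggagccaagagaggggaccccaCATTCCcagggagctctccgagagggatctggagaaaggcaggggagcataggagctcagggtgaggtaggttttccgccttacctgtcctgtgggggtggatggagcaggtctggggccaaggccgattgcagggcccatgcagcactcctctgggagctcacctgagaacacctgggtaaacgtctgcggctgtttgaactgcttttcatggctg

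The diet comparison asked how these glands differed after the peri-pubertal high-fat diet. Among the 9 genes, the β4 integrin gene and the collagen XVII gene stood apart, with levels about 1.94 and 2.39 times as high on HFD as on CD and no overlap between the diets. The laminin chain genes Lama3 and Lamb3 had higher means on HFD, with 1 HFD array far above the others and overlapping groups. Itga6 and Itga3, which encode α chains, differed little, and Cd151 had no steady direction. Dst had a small negative difference with overlapping groups, and Plec had lower levels on HFD. In bulk RNA, fewer cells of a type and less RNA per cell cannot be told apart.

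Itgb4 encodes the β4 integrin chain, which pairs with α6 and carries the long cytoplasmic tail that binds plectin. Its probe A_55_P1998299 had levels of 2.28, 2.02 and 2.17 on HFD replicates 1, 2 and 3, and of 1.25, 1.48 and 0.87 on CD replicates 1, 2 and 3. Every HFD array lay above every CD array, by at least 0.54, and CD replicate 3 was the lowest. The group means were 2.15 ± 0.13 (SD, n = 3) on HFD and 1.20 ± 0.30 (SD, n = 3) on CD, a difference of 0.96 (SE 0.18). On the slide that held both diets, HFD replicates 2 and 3 exceeded CD replicate 1 by 0.77 and 0.92. The Itgb4 difference stood at percentile 98.2 of the differences of all genes tested. Without HFD replicate 3 it was 0.95, and without CD replicate 1 it was 0.98.

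Itga6 encodes the α6 chain, the partner of β4 in the junction. Its levels were 4.36, 4.46 and 4.61 on HFD and 4.27, 4.22 and 4.35 on CD. The groups did not overlap, but the lowest HFD and the highest CD array were only 0.01 apart. The difference was 0.20 (SE 0.12), and with a normexp background correction it was 0.06. Without HFD replicate 3 it was 0.13, and without CD replicate 1 it was 0.19. Itga3 encodes the α3 chain, which pairs with the β1 integrin to bind laminin-332. Its levels were 2.08, 2.15 and 2.27 on HFD and 2.19, 1.74 and 1.81 on CD. CD replicate 1 lay within the HFD range and the groups overlapped. The Itga3 difference was 0.26 (SE 0.16), and 0.03 on the shared slide. It was 0.20 without HFD replicate 3 and 0.39 without CD replicate 1.

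Cd151 was read by a pair of probes that gave different pictures. Probe A_51_P343252 had levels of 4.67, 4.73 and 4.72 on HFD, between the lowest and highest of 4.36, 4.97 and 4.82 on CD. The HFD arrays were close to each other and the CD arrays spread to both sides of them. The difference was -0.01 (SE 0.18), and on the shared slide it was 0.36. It was -0.02 without HFD replicate 3 and -0.19 without CD replicate 1. The difference of the gene changed sign in 7 of 20 alternative settings, among them the mean of both probes, at 0.11. Probe A_55_P1960216, matched to the same transcript, had levels of 2.02, 2.06 and 2.09 on HFD and 1.64, 1.86 and 1.99 on CD. Here every HFD array was above every CD array, by at least 0.03, with a difference of 0.23 (SE 0.13). No direction is therefore given for Cd151.

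Col17a1 encodes collagen XVII, the transmembrane collagen of type I hemidesmosomes, which binds β4 integrin inside the cell and laminin-332 outside. Its levels were 1.01, 0.85 and 1.52 on HFD and 0.18, -0.02 and -0.54 on CD. Every HFD array was above every CD array, by at least 0.67. HFD replicate 3 was the highest and CD replicate 3 the lowest. The means were 1.13 ± 0.35 (SD, n = 3) and -0.13 ± 0.37 (SD, n = 3), a difference of 1.26 (SE 0.26), which stood at percentile 99.2 of all genes tested. On the shared slide, HFD replicates 2 and 3 exceeded CD replicate 1 by 0.67 and 1.34. Without HFD replicate 3 the difference was 1.06, and without CD replicate 1 it was 1.41.

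**Figure D1:**
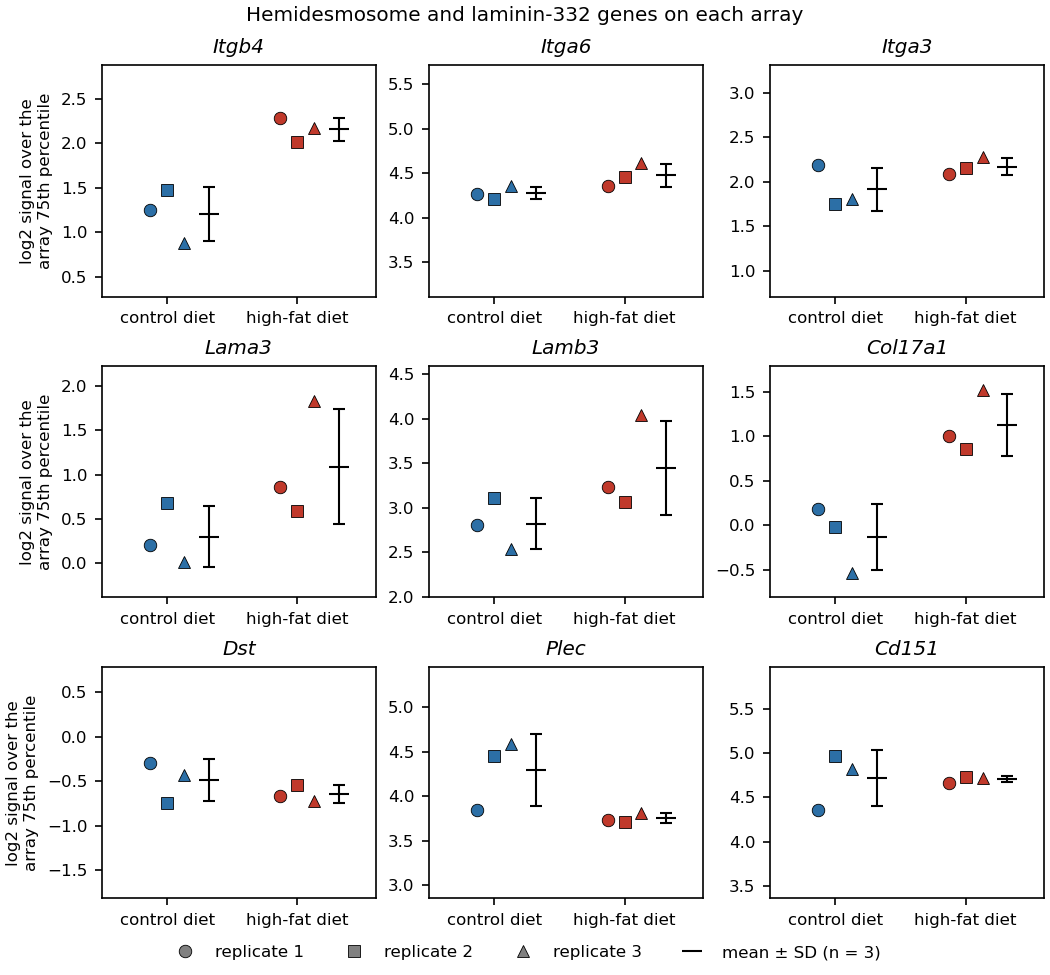
Level of each of the 9 genes on each of the 6 arrays, as log2 signal over the array's 75th percentile on the vertical axis, by diet on the horizontal axis; symbols mark replicates, and bars the mean ± SD of 3 mice. All panels span the same number of log2 units. The diets are clearly apart in Itgb4 and Col17a1, by gaps of 0.54 and 0.67, and overlap in Lama3, Lamb3, Itga3, Dst and Cd151.

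The plakins link the junction to the cytoskeleton. Plec encodes plectin, which joins β4 integrin to keratin filaments in epithelium and also organises intermediate filaments in muscle. Its levels were 3.74, 3.71 and 3.82 on HFD and 3.84, 4.46 and 4.59 on CD. Every HFD array was below every CD array, but CD replicate 1 was only 0.02 above the highest HFD array, while CD replicates 2 and 3, which shared a slide with no HFD array, were well above. The Plec difference was -0.54 (SE 0.21), corresponding to a level 1.46 times as high on CD. On the shared slide it was -0.08. Without HFD replicate 3 it was -0.57, without CD replicate 1 it was -0.77, and without CD replicate 3 it was -0.39. The part of the slide in the Plec difference was not tested.

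Skeletal muscle is another tissue that uses plectin, and its markers were also lower on HFD. Of 13 muscle markers 10 were measured, and Myh2, Myh4 and Myot did not pass the filter. In 8 of the 10 every HFD array was below every CD array, against 8.75% of all genes tested. The summed muscle marker signal, in units of the array's 75th percentile, was 5.31, 3.90 and 5.16 on HFD replicates 1, 2 and 3 and 9.76, 12.02 and 7.37 on CD replicates 1, 2 and 3. CD replicate 1 had a muscle sum of 9.76 and a Plec level of 3.84, CD replicate 2 had 12.02 and 4.46, and CD replicate 3 had 7.37 and 4.59. The part of muscle RNA in the Plec values was not tested.

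Dst encodes dystonin, whose epithelial isoform BPAG1e is the hemidesmosomal plakin, while other isoforms serve neurons and muscle. Which isoforms the probes read is not given. Probe A_51_P300434 (NM_134448) had levels of -0.67, -0.54 and -0.73 on HFD and -0.29, -0.74 and -0.42 on CD. Probe A_52_P445253 (NM_133833) had levels of -2.52, -2.73 and -2.79 on HFD and -2.38, -2.76 and -2.57 on CD. The diets overlapped on both probes. The differences were -0.16 (SE 0.15) and -0.11 (SE 0.15), and on the shared slide -0.34 and -0.38. On the first probe the difference was -0.12 without HFD replicate 3, -0.06 without CD replicate 1 and -0.29 without CD replicate 2.

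The laminin-332 chains came next. Lama3 encodes the α3 chain, which holds the integrin-binding domains of the trimer. Its levels on probe A_55_P2064333 were 0.85, 0.59 and 1.82 on HFD and 0.21, 0.68 and 0.01 on CD. HFD replicate 3 was far above all other arrays, while HFD replicate 2 was below CD replicate 2, so the groups overlapped. The difference was 0.79 (SE 0.35), 0.42 without HFD replicate 3 and 0.74 without CD replicate 1. The second Lama3 probe, A_55_P2024763, had levels of 0.64, 0.53 and 1.67 on HFD and 0.08, 0.53 and -0.13 on CD, in the same order of arrays as the first. Its difference was 0.78 (SE 0.34).

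Lamb3 encodes the β3 chain. Its levels were 3.23, 3.07 and 4.04 on HFD and 2.81, 3.11 and 2.54 on CD. As for Lama3, HFD replicate 3 was the highest, CD replicate 3 the lowest, and HFD replicate 2 lay below CD replicate 2. The difference was 0.63 (SE 0.29), 0.33 without HFD replicate 3 and 0.62 without CD replicate 1.

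Lama3 and Lamb3 varied together across mice. With each gene centred on its mean over the 6 arrays, the root mean square distance between their profiles was 0.12. Over the 36 pairs of the 9 genes they were the closest, followed by Itga6 and Itga3 at 0.15. Itgb4 and Col17a1 were 0.28 apart, whereas Itgb4 and its partner Itga6 were 0.45 apart. Col17a1 and Plec were the farthest pair, at 1.01. These distances include the diet difference itself and are descriptions over 6 arrays. They also depend on how much each gene varies, so genes that vary little lie close whatever their pattern. On CD replicate 1, for example, the centred level was -0.11 for Itga6 and 0.15 for Itga3.

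**Figure D2:**
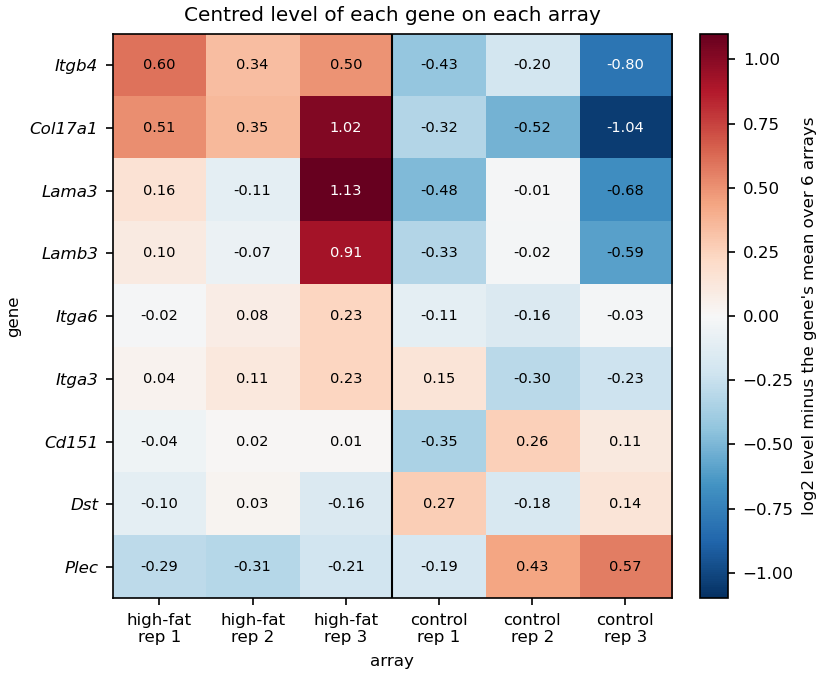
Log2 level of each gene minus its mean over the 6 arrays (colour and printed value), with genes in rows and arrays in columns. Lama3 and Lamb3 share 1 pattern, with HFD replicate 3 at 1.13 and 0.91, while Itgb4 and Col17a1 are above their mean on every HFD array and below it on every CD array.

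Averaged over the 9 genes, the centred level was 0.11, 0.05 and 0.41 on HFD replicates 1, 2 and 3 and -0.20, -0.08 and -0.29 on CD replicates 1, 2 and 3. HFD replicate 3 had the highest level in 5 of the 9 genes, and CD replicate 3 the lowest in 4. Plec was the farthest from the mean of the other members, at 0.59, and Itga6 the closest, at 0.16. Of 16383 other genes with a symbol, the profiles nearest to this mean were those of Zfp971 and Adamts13 at 0.06 and of Trappc6b, Hoxc12, Pif1 and Ggct at 0.08. Zfp971 and Adamts13 had levels of -7.74 to -6.56, near the detection limit, and Hoxc12 had levels of -6.31 to -5.71, also close to it. The profiles nearest to Itgb4 alone were those of Rec114 at 0.10, Pts at 0.11 and Sh3tc2 at 0.12.

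As a group, 6 of the 9 genes had a positive difference, against 49% of all genes tested. Their differences ran from -0.54 to 1.26 with a median of 0.26, against -0.01 over all genes. With a normexp background and the same scaling, the median of all genes moved to 0.27 and that of the 9 genes to 0.16, which is below it. Every HFD array was above every CD array in 3 of the 9 genes, Itgb4, Itga6 and Col17a1, as in 8.47% of all genes. Every HFD array was below every CD array in 1 of the 9, Plec, as in 8.75%. At an unadjusted p under 0.05 in limma, 2 of the 9 genes, Itgb4 and Col17a1, had higher levels on HFD, as did 5.88% of all genes, and 1 of the 9, Plec, had lower levels, as did 7.46%. After Benjamini-Hochberg adjustment limma called 0 of the 9 genes, and 4 of all genes (0.0171%). Because the genes were selected on this contrast, nothing is read from these counts.

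**Figure D3:**
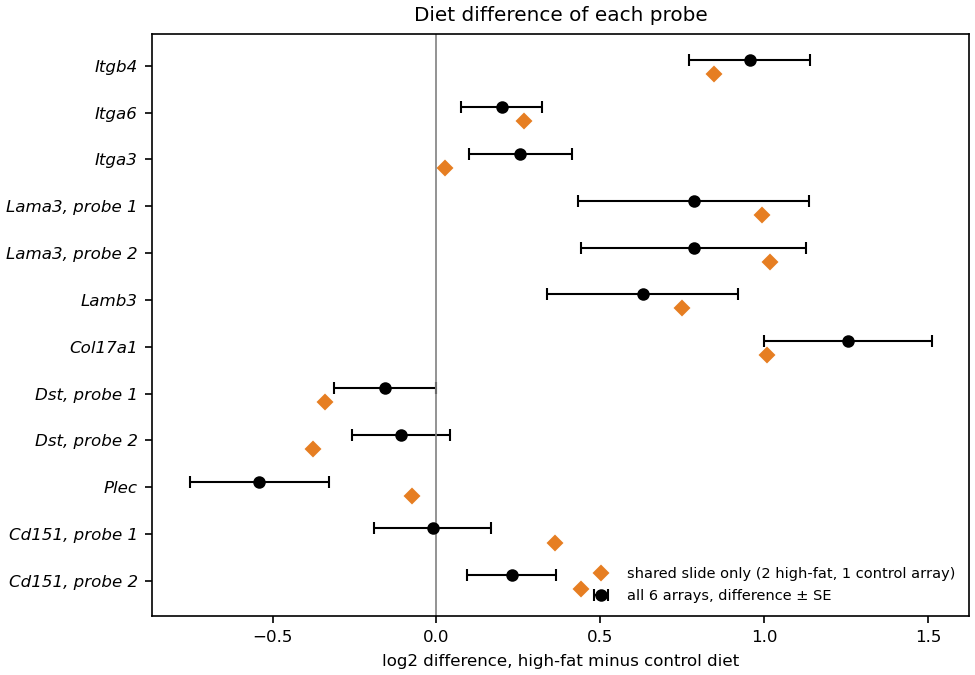
Difference in log2 level, HFD minus CD, of each of the 12 probes on the horizontal axis. Black points with bars are differences over all 6 arrays ± SE from limma, and orange diamonds are the difference on the slide with 2 HFD arrays and 1 CD array, which is -0.08 for Plec, 0.85 for Itgb4 and 1.01 for Col17a1.

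Pathway neighbours were read in the same limma fit from 7 lists of 96 genes in all, of which 91 were tested. In those lists limma called 0 genes after adjustment, and at an unadjusted p under 0.05 it listed 20 higher and 4 lower. The shares of all genes at that level were 5.88% higher and 7.46% lower. Their differences were positive in 48 genes and negative in 43, with a median of 0.11. Counts without overlap, given below, compare with the shares of all genes above.

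Desmosome genes had the most uniform direction of the 7 lists. Desmosomes are the keratin-anchored junctions between neighbouring cells. Of 11 desmosome genes 10 were tested, Dsg1a being below the filter, and all 10 had positive differences, with a median of 0.74. In 9 of them every HFD array was above every CD array, and 8 had an unadjusted p under 0.05. The desmosomal cadherin gene Dsg3 had levels of -1.48, -2.19 and -1.55 on HFD and -3.23, -3.29 and -4.00 on CD, a difference of 1.77 (SE 0.29, limma adjusted p = 0.144). Differences were 0.78 (SE 0.16) for Jup, which encodes plakoglobin, 0.92 (SE 0.19) for Perp and 0.64 (SE 0.19) for Dsp, which encodes desmoplakin.

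Keratins and other plakins are the filament side of both junctions. All 10 listed genes were tested, 8 had positive differences, and the median was 0.76. In 5 of them every HFD array was above every CD array, and none was below. Krt5, the basal keratin that partners Krt14, had levels of 6.11, 5.91 and 6.16 on HFD and 4.71, 5.07 and 4.60 on CD. Its difference was 1.27 (SE 0.16, limma adjusted p = 0.117), that of Krt14 was 1.23 (SE 0.33, adjusted p = 0.269) and that of Krt17 was 1.36 (SE 0.27). The 4 plakins of the list were mixed. Eppk1, which encodes epiplakin, had a difference of 0.88 (SE 0.23) with every HFD array above every CD array. The diets overlapped in the other plakin genes, with 0.39 (SE 0.39) for Ppl, which encodes periplakin, -0.11 (SE 0.24) for Evpl, which encodes envoplakin, and -0.18 (SE 0.15) for Macf1, a relative of Dst.

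Most basement membrane genes had negative differences. Of 25 genes 23 were tested, 6 had positive and 17 negative differences, and the median was -0.17. In 0 of the 23 were the diets without overlap, and limma listed 0 at an unadjusted p under 0.05. The other laminin chains that epithelium can rest on had differences of -0.18 (SE 0.13) for Lama5, -0.20 (SE 0.17) for Lamb1 and -0.17 (SE 0.29) for Lamc1. Col7a1, which encodes the collagen of the anchoring fibrils below hemidesmosomes, had 0.21 (SE 0.37). Lama2, a chain of muscle and stromal laminins, had -1.41 (SE 0.62), and Nid1, the laminin and collagen IV linker nidogen, had -0.60 (SE 0.27).

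Other laminin receptors, integrins and tetraspanins were mixed. Of 19 genes 17 were tested, with 7 positive and 10 negative differences and a median of -0.12. In 3 of them every HFD array was above every CD array. These were Itgb1, the partner of Itga3, with a difference of 0.54 (SE 0.15, limma adjusted p = 0.283), Itgb6, a chain of epithelial αvβ6, with 1.53 (SE 0.34, adjusted p = 0.230), and the laminin α5 receptor gene Bcam, with 0.46 (SE 0.16). Itga2, which encodes a collagen and laminin receptor chain, had 0.27 (SE 0.18) with overlapping diets.

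The cytoplasmic adaptors of integrins had a median difference of 0.17 over 12 tested genes, 9 of them positive. In 4 every HFD array was above every CD array. Fermt1, which encodes the epithelial integrin activator kindlin-1, had levels of -0.26, -0.59 and -0.46 on HFD and -1.22, -1.35 and -2.22 on CD. Its difference was 1.16 (SE 0.28, limma adjusted p = 0.251). Vcl, which encodes vinculin, had 0.53 (SE 0.15), and Tln1, the talin of focal adhesions, had -0.34 (SE 0.18) with overlapping diets.

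Among 7 proteases known to cut laminin-332 or its surroundings, 1 difference was positive and 6 negative, with a median of -0.30. Mmp2 and Mmp3 were the pair with every HFD array below every CD array, with differences of -1.04 (SE 0.29) and -1.22 (SE 0.37). Mmp14, a membrane-bound metalloprotease, had -0.44 (SE 0.23). The 12 regulators of hemidesmosomes had a median of 0.07. Trp63, the basal transcription factor p63, had 0.17 (SE 0.11, limma adjusted p = 0.515), although every HFD array was above every CD array. Yes1, a Src family kinase gene, had 0.76 (SE 0.25), and Met, which encodes the receptor of hepatocyte growth factor, had 0.62 (SE 0.21). Mst1r, a related receptor gene, had -1.50 (SE 0.60) with overlapping diets.

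**Figure D4:**
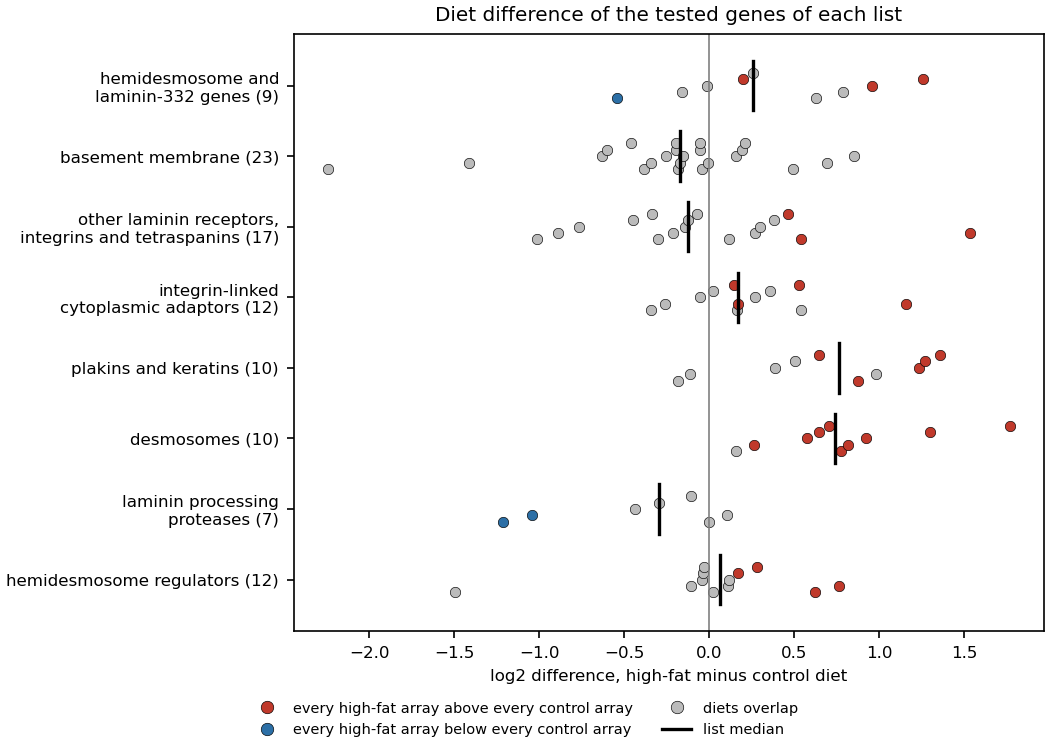
Difference in log2 level, HFD minus CD, of each tested gene (points) in the 9 genes and in 7 pathway lists, with the number tested in brackets and the list median as a black bar. Red points have every HFD array above every CD array, blue points every HFD array below, and grey points overlap. The medians of desmosome genes and of plakins and keratins are 0.74 and 0.76, against -0.17 for basement membrane genes.

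Cell-type markers were also summed on each array. The basal and myoepithelial list, which holds Krt5, Krt14 and Krt17 again, was measured for 10 of 10 genes, and all 10 differences were positive, with a median of 1.02. Its summed signal was 283.6 to 333.9 on HFD and 135.7 to 211.5 on CD, without overlap. Luminal markers, 14 of 14 measured, summed to 256.1 to 498.3 on HFD and 209.7 to 311.3 on CD, with HFD replicate 3 the lowest of its diet. Of the 14 luminal differences 13 were positive, with a median of 0.70. Fibroblast markers, 8 of 8 measured, summed to 172.1 to 440.4 on HFD and 390.7 to 652.5 on CD, and HFD replicate 3 was the highest of its diet. Of the 8 fibroblast differences 7 were negative, with a median of -0.96. The diets overlapped in both of these sums. The part of the proportion of basal cells in the Itgb4, Col17a1 and laminin values was not tested.

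Other cell types that use these genes were also measured. Keratinocytes of skin, rich in hemidesmosomes, were represented by 8 of 13 markers, which summed to 4.56 to 6.73 on HFD and 2.94 to 4.86 on CD. Endothelial markers, 10 of 10 measured, summed to 12.34 to 23.35 on HFD and 12.85 to 22.02 on CD. Schwann cells, which carry α6β4 on their outer face, were represented by 8 of 9 markers, which summed to 6.83 to 9.36 on HFD and 8.13 to 9.70 on CD. Adipocyte markers, 9 of 9 measured, summed to 1.69 to 6.33 on HFD and 2.18 to 4.02 on CD, and leukocyte markers, 7 of 10 measured, to 8.21 to 10.29 and 8.48 to 13.44. The diets overlapped in each of these 5 sums, but not in every marker. Every HFD array was above every CD array in 4 of 8 keratinocyte and 2 of 9 adipocyte markers. The same held for 1 of 10 endothelial, 1 of 7 leukocyte and 0 of 8 Schwann cell markers. Every HFD array was below every CD array in 3 of 8 Schwann cell and 2 of 9 adipocyte markers, and in 0 markers of the other lists. The shares of all genes were 8.47% above and 8.75% below. The part of these cell types in the results was not tested.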

How the data were processed

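The deposited scanner files hold, for each array, the processed intensity of 44397 spots on a linear scale after background subtraction by Agilent Feature Extraction 11.0.1.1, per the file headers and the submitters' processing notes. The authors' deposited value table holds intensity for 30608 probes and, set against the scanner files, is the processed signal over about the 75th percentile of its array (column medians 0.134, 0.134 and 0.137 for HFD, 0.134, 0.14 and 0.134 for CD).

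From the scanner files, control spots and outlier flags were left out, spots of 1 probe averaged, 111 of 39429 probes dropped for lack of a usable spot on every array, and log2 signal taken minus the array's 75th percentile. The filter kept 28689 probes that 3 or more of the 6 arrays had well above background, and the probe with the highest mean stood for its gene (23460 genes or unnamed transcripts). Names came from RefSeq accessions, and 27427 probes had 1 symbol. The fit used limma 3.58.1 (lmFit and eBayes, R 4.3.3) without covariates, with two-sided p adjusted by Benjamini-Hochberg for the whole table and a threshold of 0.05. It was also run on simulated data with known changes, drawn independently for each array and without slide effects. That run does not show how the fit performs with the slides of this design. An exact permutation test of 3 against 3 has 0.10 as its smallest p, and limma instead borrows spread across genes. Some items are not reported here. The design text calls the samples biological replicates.

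The members, lists and alternatives were chosen with earlier results of these data known. Named were every member and probe, neighbours by role (Itgb1, Itga2, Lama5, Lamc1, Lamb1, Col7a1, Krt5, Krt14, Trp63, Fermt1 and Dsp), up to 3 genes with the smallest p in each list, the 6 genes nearest the mean member profile and the 3 nearest Itgb4. Macf1, Ppl, Evpl, Eppk1, the marker Krt18 and the adipocyte markers fell outside this rule and were added after their values were seen. Same-numbered mice did not deviate together in every pair (correlations 0.327, -0.144 and 0.25), so replicate numbers were not taken as pairs. Slide, scaling, background, filter, probe rule, variance settings, array weights and single arrays were varied.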

Additional observations from a re-analysis of the deposited data

How the results depend on the processing

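Among the 9 genes, the differences of Itgb4 (0.79 to 1.13) and Col17a1 (1.01 to 1.41) kept their sign in 20 of 20 alternative settings, as did those of Lamb3 (0.33 to 0.82), Itga6 (0.06 to 0.27), Itga3 (0.03 to 0.39), Dst (-0.34 to -0.04) and Plec (-0.79 to -0.08), and of Lama3 (0.42 to 1.04) in 19 of 19. The Cd151 difference changed sign in 7 of 20. Some settings could not change a sign. The filter, probe rule, variance and replicate block settings left Itgb4 at 0.9554. Leaving out 1 array cannot turn the sign of a gene whose diets do not overlap. With normexp and the 75th percentile, Itga6 (0.06) and Itga3 (0.16) were below the median of all genes, 0.27. Leaving out 1 array at a time gave medians of 0.17 to 0.39 for the 9 genes, 2 to 4 of them and 13 to 38 pathway genes at an unadjusted p under 0.05, and 0 to 37 genes in all past the adjusted threshold. The 37 came without HFD replicate 3, and so did the 38, while the 13 came without CD replicate 3. The 4 genes past the threshold in all became 2 with median scaling, 0 with quantile normalization, 0 with normexp and the 75th percentile, 7 with normexp and quantile normalization, 0 without a filter, 7 among probes well above background on all 6 arrays, and 0 with slide as a block. Median scaling put 5 of the 9 genes at an unadjusted p under 0.05, against 3. With slide as a block, which rests on the slide holding both diets, 0 of the 9 and 11 pathway genes were at that level. Array weights called 5410 genes in all, 3 of the 9 and 33 pathway genes, with 6 and 50 at an unadjusted p under 0.05. The cause of these shifts was not tested. With the replicate number as a block, 0 genes passed the adjusted threshold in all, 0 of the 9 and 0 pathway genes did, and 3 of the 9 and 36 pathway genes had an unadjusted p under 0.05. The deposited value table was used for 8 of the 9 genes, as Lama3 was not analysed in it. The number of arrays and the single slide with both diets limit the precision.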
